A study of Rattus norvegicus with 2 samples.

Results

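Membrane traffic in a neuron depends on protein machines that bud, sort, tether and unpack transport vesicles. The rat genes of these machines were taken from digital gene expression libraries of cultured cortical neurons by symbol: the COG (Cog1 to Cog8), exocyst (Exoc) and TRAPP (Trappc) tethers, every Vps gene, every Sec gene with a number, the COPI coat (Copa, Copb, Cope, Copg, Copz), and the subunits of the adaptor complexes AP-1 to AP-4. The rule found 111 members among 9894 genes with at least 1 tag, 103 through their RefSeq accession and 8 through the description in the tables. It also takes in genes that share only the name, such as Vps72, a subunit of chromatin remodelling complexes, and Sec61, Sec62 and Sec63, which form the protein channel of the endoplasmic reticulum (ER). Subunits that did not turn up by symbol, Cog5 among them, are not analysed here.

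The cells came from the somatosensory cortex of E16 (embryonic day 16) Sprague-Dawley rats and were dissociated, electroporated with a control plasmid or an RNAi plasmid against PIWIL1, a PIWI-family protein that binds small RNAs, and grown for 48 h in Neurobasal medium with FBS and B27. One library was made from each condition, so there is no replicate check. Every test below compares those 2 libraries and not the conditions, and every interval covers counting error only. The RNA came from whole cultures, in which fewer cells of a type and less RNA per cell cannot be told apart, and the share of cells that took up plasmid is not given in the sources used here.

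Coats bend a membrane into a bud and choose its cargo. COPII carries proteins out of the ER, COPI returns them from the Golgi, and the clathrin adaptors AP-1 and AP-2 work at the trans-Golgi network and the plasma membrane, while AP-3 and AP-4 serve lysosomal and other post-Golgi routes. Tethers then catch the vesicle at its target: COG within the Golgi, TRAPP at the early Golgi, GARP at the trans-Golgi network, HOPS and CORVET at endosomes and lysosomes, and the exocyst at the plasma membrane. Retromer returns receptors from endosomes, and the ESCRT complexes sort ubiquitinated receptors into the endosome's interior. In young cortical neurons these routes supply membrane to the growing axon and dendrites and control which adhesion molecules and receptors stay at the surface.

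The tables gave 1947600 tag copies on genes in the control library and 1865913 in the RNAi library, of 3386865 and 3303360 clean tags, which made 3 copies worth 0.886 and 0.908 TPM (tag copies scaled to 1000000 clean tags). No gene carried the symbol Piwil1, so the knockdown was not checked in these libraries. All 8 neuronal markers looked for were listed and summed to 4504 TPM in the control and 3954 TPM in the RNAi library, with Map2 and Snap25 called down. Tubb3, Stmn2 and Neurod6 were lower and Gap43 was higher, all without a call. Dcx was within counting error of 0, with a log2 ratio of 0.07 (-0.04 to 0.18), and Rbfox3 had 8 copies in each library. Gap43 had a log2 ratio of 0.44, and -0.16 without tags ending in 8 or more A, which held 74.4% of its copies. The 4 fibroblast and meningeal collagen and decorin genes summed to 543 and 522 TPM, the 5 radial glia and progenitor markers to 1003 and 1298 TPM (Vim alone was higher in the RNAi library, and Sox2, Nes, Pax6 and Fabp7 were lower, with a median log2 ratio of -0.26), and 3 of 4 astrocyte markers to 20.4 and 22.1 TPM. Of the oligodendrocyte lineage 4 of 4 markers summed to 5.03 and 3.93 TPM, of endothelial and mural cells 1 of 4 had 2.95 and 0.91 TPM, and of blood 1 of 3 had 19.2 and 22.4 TPM. The microglial markers Aif1 and Csf1r, of 4 looked for, had 48 and 53 copies together. The part of these shifts in the members' ratios was not tested.

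A tag is the 21 bases that start at a CATG site in the transcript, and sites are numbered from the 3′ end, so site 1 is the CATG nearest the poly(A) tail. A gene's value is the sum of its tags. When site 1 lies close to the tail, the tag runs into it and ends in A. The tags below are the ones the results turn on: the most copied tag of every member that was called, and the tags with a long run of A. Capitals mark the terminal run of A where there are 3 or more, and otherwise the last 2 bases, because the ratio between the libraries moved with these bases. The first group ended in 8 or more A.
Vps52 site 1: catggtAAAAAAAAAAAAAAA
Vps52 site 1: catggtaaaatAAAAAAAAAA
Ap1m1 site 1: catgtgcaatAAAAAAAAAAA
Ap1m1 site 1: catgtgcAAAAAAAAAAAAAA
Cog7 site 1: catgaaatgggAAAAAAAAAA
The most copied Vps52 tag holds only 6 bases before its run of A, the Ap1m1 tags hold 10 and 7, and the Cog7 tag holds 11. These bases include the CATG that every tag shares. Whether other transcripts gave the same tags was not tested, so their copies may not all belong to the named gene.

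The second group belongs to members called up in the RNAi library, with or without the tags above.
Ap1m1 site 2: catgtgtgacagtgacattAA
Copz2 site 1: catgggaaccagcaaaattGC
Trappc14 site 3: catgaggtcaggcagtgtgAT
Vps37c site 1: catggtgcttcccagacatCA
Cog3 site 2: catgctctgctaaaggaagAG
Vps13a site 7: catgctggacctcctaactCC
The third group belongs to members called down.
Exoc6b site 1: catgagtacccccattcccCT
Trappc6b site 1: catgtggcttaatcagaggTG
Trappc9 site 1: catggtgaggaggcatcagGG
Trappc4 site 1: catgctccagggctttgctGT
Sec61g site 1: catgaagtaaaagttgcctGG
Vps36 site 1: catgacactgagttaagagAT
Vps13d site 8: catgtatatatgtacaactGT
Ap1s2 site 2: catgatgttccttctagggTG
Sec62 site 4: catgatgggtcatcgggttGA

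Few coat, tether and adaptor genes were called different between the libraries, and they went in both directions. Of the 111 members, 107 were listed in both, 3 in the RNAi library only and 1 in the control only, and the 107 had a median log2 ratio (RNAi over control, on the TPM scale) of -0.03 with quartiles of -0.30 and 0.23, beside a median of -0.08 with quartiles of -0.44 and 0.23 over all 8899 genes listed in both. In all, 7 members were called up and 9 down, where a call needs a Benjamini-Hochberg adjusted p (FDR) of 0.05 or less in a two-sided Fisher's exact test over all genes and a log2 ratio of at least 0.58 in size. The 7 called up were 6.31% of the members, beside 2.96% of all genes, and the 9 called down were 8.11%, beside 5.97%. When tags ending in 8 or more A were left out, 5 members (4.50%) were called up, beside 2.18% of all genes, and 9 (8.11%) down, beside 5.52%. A separate correction, made on all tags, took out the ratio typical of each tag end. Under it 3 members (2.70%) were called up, beside 1.89% of all genes, and 3 (2.70%) down, beside 3.7%. The share of members called thus lay above that of all genes in both directions with all tags, and above it for higher and below it for lower genes under the correction. Calls depend on how well a gene is counted. In both libraries 88 members were listed with at least 50 copies together. Of these, 7.95% had a log2 ratio of 0.58 or more and 10.2% one of -0.58 or less, whatever the FDR. Over all 6010 such genes the shares were 5.86% and 12.3%, so the members' share of lower genes was the smaller.

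**Figure D1:**
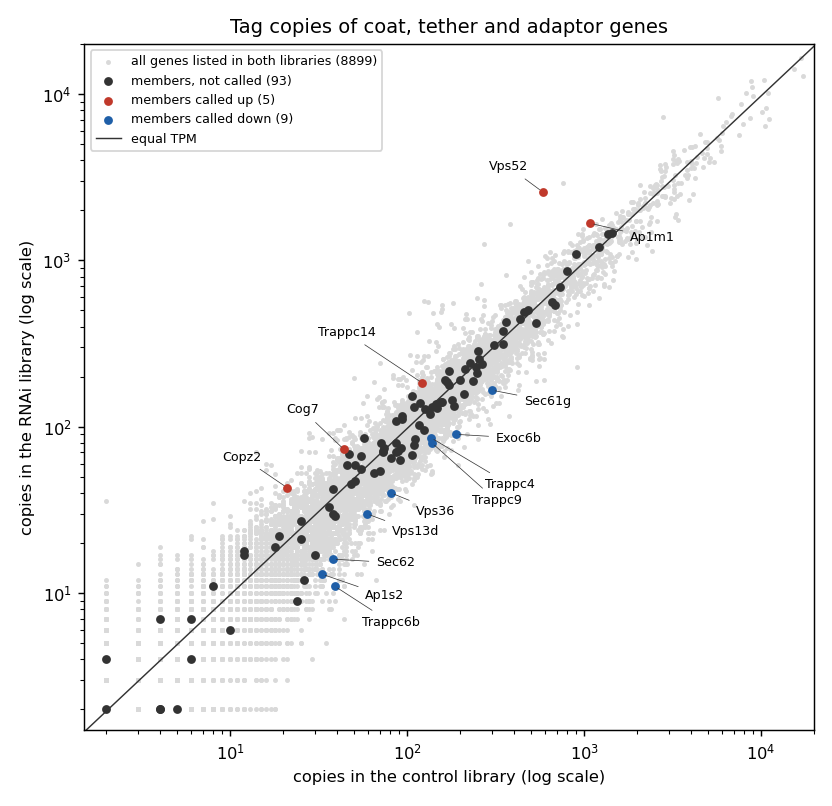
Tag copies of each gene in the control library (x) and the RNAi library (y), both on log scales, for genes listed in both. Grey points are all 8899 genes, dark points are members that were not called, red and blue points are members called up and down, and the line marks equal TPM. The members lie along the line up to the best counted ones, and Vps52 stands farthest above it.

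Precision differed widely between members. Their copies in both libraries together ran from 2 to 3166 with a median of 188, and 14 members had fewer than 20. A log2 ratio of 0.58 passed the adjusted threshold from 172 copies upward, which 57 members reached, and one of -0.58 from 210, which 52 reached. The 95% interval (exact, counting error only) of 15 members lay above 0, that of 20 below 0, and that of 76 included 0, while 39 intervals lay wholly within 0.58 of 0 on either side. The share of all genes with such intervals is not given here, so these counts describe precision only. The other intervals reached past that size.

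The largest difference belonged to Vps52, a subunit that GARP and its endosomal relative EARP share. It had 582 copies in the control and 2584 in the RNAi library, a log2 ratio of 2.19 (95% interval 2.06 to 2.32, FDR 7.64e-315), the highest of all 107. A-run tags, those that end in 8 or more A, held 93.9% of these copies. The single tag with 15 terminal A went from 489 to 2404 copies, a log2 ratio of 2.33, where all tags with 13 or more terminal A had a median of 1.91 over 38 tags. Without the A-run tags Vps52 had 80 and 112 copies and a log2 ratio of 0.53 (0.11 to 0.97), which was below the threshold of size. The call therefore rested on the A-run tags, and whether their copies came from Vps52 alone was not tested.

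Ap1m1, the medium subunit of the Golgi adaptor AP-1 that reads tyrosine sorting signals, was the only other well counted member with such tags. It rose from 1083 to 1671 copies, a log2 ratio of 0.66 (0.55 to 0.77, FDR 7.19e-33), with 28.3% of its copies on A-run tags. The tag with 11 terminal A went from 149 to 465 copies and the tag with 14 from 33 to 125. The site 2 tag, which ends within the transcript, went from 804 to 978, a log2 ratio of 0.32. Without the A-run tags the gene stood at a log2 ratio of 0.31 (0.18 to 0.44, FDR 2.17e-06), higher but no longer past the threshold of size.

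Cog7, a COG subunit whose loss causes an inherited glycosylation disorder, changed direction. It had 44 copies in the control and 73 in the RNAi library, a log2 ratio of 0.77 (0.21 to 1.34, FDR 0.0279), and 69.2% of them ended in 8 or more A. Its other tags had 22 and 14 copies, which gave a log2 ratio of -0.60 (-1.68 to 0.43) once the A-run tags were left out.

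Within each of these 3 genes the A-run tags and the other tags gave different ratios. In Vps52 the A-run tags had 502 and 2472 copies, a log2 ratio of 2.34 (2.20 to 2.48), and the other tags 0.52 (0.09 to 0.95). In Ap1m1 the A-run tags had 186 and 594 copies, a log2 ratio of 1.71 (1.47 to 1.96), against 0.30 (0.17 to 0.43) for the other tags. In Cog7 they had 22 and 59 copies, a log2 ratio of 1.46 (0.73 to 2.24), against -0.62 (-1.70 to 0.42). The difference passed a two-sided Fisher's exact test in all 3, with p-values adjusted over the 3 of 1.56e-14, 3.93e-26 and 0.000808. These were the only members with A-run tags, 18 tags in all, and 171 genes in the tables had any. In the libraries as a whole A-run tags took 1.08% of the copies in the control and 2.72% in the RNAi library.

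**Figure D2:**
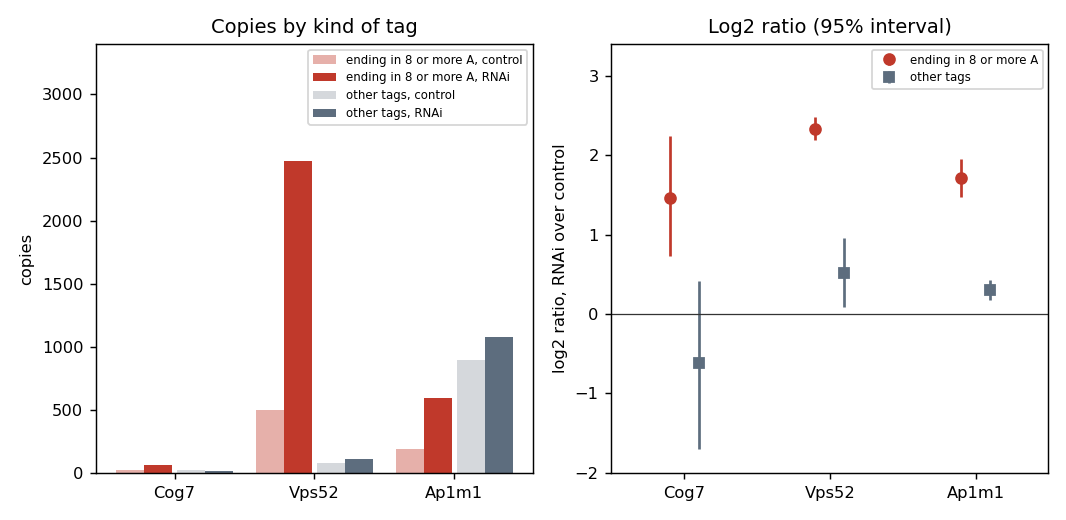
Copies (left, bars from 0) and log2 ratio with 95% counting interval (right) of tags ending in 8 or more A and of the other tags, in Cog7, Vps52 and Ap1m1. In each gene the A-run tags lie higher in the RNAi library than the other tags do, and for Cog7 the other tags lie below 0 with an interval that includes it.

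Vps52 also carried 23 tags that differed at 1 base from its most copied tag, out of 62 such variants over the most copied tags of 22 members. Together the 23 had 48 copies in the control and 119 in the RNAi library. The most copied of them was A11T (position 11 counted from 1 at the C of CATG, with the most copied tag as reference), with 4 and 29 copies, printed above. All of these variants stood at site 1. The 7 Vps52 tags at other sites had 45 and 61 copies, a log2 ratio of 0.47 (-0.10 to 1.06). With the A-run tags and their 1-base neighbours left out, an alternative chosen after seeing the data, Vps52 had a log2 ratio of 0.49 (-0.09 to 1.08, FDR 0.230).

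Among the tethers, the COG complex, which keeps glycosylation enzymes in their Golgi cisternae, had 7 members. Cog7 and Cog3 were called up and none down. Cog3, another subunit, was listed at 0 in the control and had 9 copies on 3 tags in the RNAi library (FDR 0.0133). With the control set to 3 copies Cog3 was 3.08-fold higher, which is not a lower bound. The counting interval of its log2 ratio began at 1.02. Tags below 2 copies are not listed, so a 0 does not exclude single copies. Cog4, the best counted subunit, had 212 and 222 copies, a log2 ratio of 0.10 (-0.18 to 0.38). The 5 members that were not called summed to 473 and 486 copies, a log2 ratio of 0.08 (-0.11 to 0.26), within counting error of 0.

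The exocyst, which docks vesicles at the plasma membrane where neurites extend, had 10 members, and Exoc6b was called down. Exoc6b had 189 copies in the control and 90 in the RNAi library, a log2 ratio of -1.03 (-1.41 to -0.66, FDR 4.86e-07). Both of its tags with 20 or more copies were lower, and the most copied went from 160 to 82. The call held without the A-run tags and under the correction for tag ends, at -0.89. Its paralogue Exoc6 had 24 and 9 copies, a log2 ratio of -1.38 (-2.67 to -0.22), but did not pass the adjusted threshold (FDR 0.0752). Exoc2, the Sec5 subunit that binds the small GTPase Ral, had 237 and 188 copies, a log2 ratio of -0.30 (-0.58 to -0.02, FDR 0.207). Of the 10 exocyst members, 7 were lower and 3 higher, where the median over all genes listed in both libraries was itself below 0 (-0.08). The complex summed to 818 and 638 copies, a log2 ratio of -0.32 (-0.47 to -0.17). Without Exoc6b the sum was 629 and 548 copies and its log2 ratio -0.16 (-0.33 to 0.00).

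TRAPP, which tethers COPII vesicles and activates Rab1 and Rab11 at the Golgi, had 13 members, more than any other complex here. Of these, 3 were called down and 1 up. Trappc6b, a small core subunit, had 39 and 11 copies, a log2 ratio of -1.79 (-2.90 to -0.80, FDR 0.00131). Trappc9, a large subunit of the TRAPP II form, had 138 and 80 copies, a log2 ratio of -0.75 (-1.17 to -0.34, FDR 0.00336), and both of its tags with 20 or more copies were lower. These calls held under the correction, at -1.44 and -0.60. Trappc4, another core subunit, had 136 and 86 copies, a log2 ratio of -0.63 (-1.03 to -0.23, FDR 0.0188), but the correction moved the ratio to -0.17, and its most copied tag ended in GT.

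Trappc14, a TRAPP II subunit linked to the primary cilium, was called up on several tags. It had 122 copies in the control and 183 in the RNAi library, a log2 ratio of 0.62 (0.28 to 0.96, FDR 0.00143). All 3 of its tags with 20 or more copies were higher, none of its tags ended in a long run of A, and the correction gave 0.85. Its most copied tag went from 88 to 110 copies, a log2 ratio of 0.36, and that tag alone gave no call. Trappc10, a partner of Trappc9 in TRAPP II, had 106 and 68 copies, a log2 ratio of -0.60 (-1.07 to -0.15), just short of a call (FDR 0.0566). Trappc2l, the best counted member, had 199 and 192 copies, a log2 ratio of -0.02 (-0.31 to 0.28). The TRAPP members therefore split, and their sum of 1418 and 1306 copies gave a log2 ratio of -0.08 (-0.19 to 0.03).

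Besides Vps52, the GARP and EARP list held 3 members, and none was called. Vps53, shared by both complexes, had 172 and 217 copies, a log2 ratio of 0.37 (0.08 to 0.67, FDR 0.0447), under the threshold of size. Vps54, found in GARP alone, had 26 and 12 copies, a log2 ratio of -1.08 (-2.20 to -0.04, FDR 0.146). Vps50, found in EARP alone, had 55 and 67 copies, a log2 ratio of 0.32 (-0.22 to 0.86, FDR 0.463). The 3 together had 253 and 296 copies, a log2 ratio of 0.26 (0.02 to 0.51), where the sum with Vps52 was 835 and 2880 copies with a log2 ratio of 1.82.

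No member of HOPS and CORVET, which tether late and early endosomes, was called, though 5 of 6 were lower. The median over all genes listed in both libraries was also below 0 (-0.08). Vps39, which binds Rab7 on lysosomes, had 184 and 133 copies, a log2 ratio of -0.43 (-0.77 to -0.10, FDR 0.0721). Vps16, a core subunit of both complexes, had 91 and 63 copies, a log2 ratio of -0.49 (-0.98 to -0.02, FDR 0.196). The 6 together summed to 594 and 474 copies, a log2 ratio of -0.29 (-0.47 to -0.11).

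**Figure D3:**
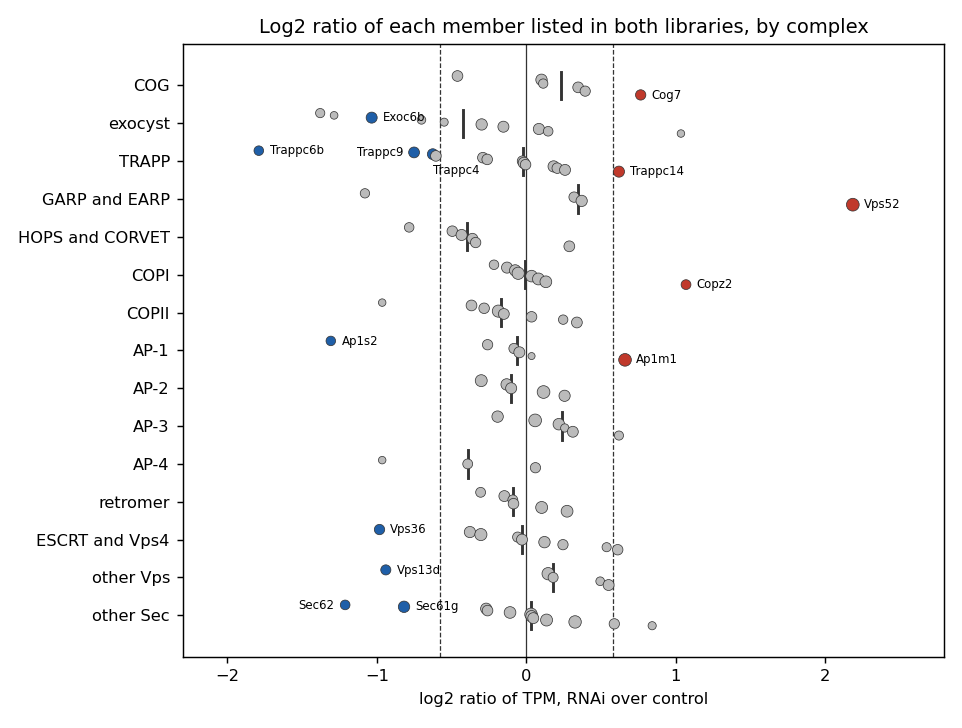
Log2 ratio (RNAi over control) of each of the 107 members listed in both libraries, by complex. Point size grows with copies, red and blue are members called up and down, short bars are medians, and dashed lines are at 0.58 on either side of 0. Calls are scattered over the complexes, with at most 4 in any one (TRAPP, which has the most members), while AP-2, AP-3, AP-4, COPII, HOPS and CORVET, and retromer have none.

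Among the coats, COPI had 8 members, of which 7 were close to 0, with log2 ratios between -0.22 and 0.13. Copa, its largest subunit, had 732 and 688 copies, a log2 ratio of -0.05 (-0.21 to 0.10). The exception was Copz2, the minor isoform of the small zeta subunit, with 21 and 43 copies and a log2 ratio of 1.07 (0.29 to 1.90, FDR 0.0269). Its most copied tag, which ends in GC, went from 18 to 37 copies, and the correction left 0.92 with an FDR of 0.0787, so that the call was lost. The 7 other subunits summed to 2254 and 2209 copies, a log2 ratio of 0.01 (-0.08 to 0.09).

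None of the 9 COPII members was called. Sec13, the outer cage protein that also serves in the nuclear pore, had 658 and 564 copies, a log2 ratio of -0.19 (-0.35 to -0.02, FDR 0.202). Sec23ip, a Sec23-binding protein of ER exit sites, had 111 and 84 copies, a log2 ratio of -0.37 (-0.79 to 0.06). Sec16b, a scaffold of those sites, was listed only in the RNAi library with 2 copies. The summed COPII coat had 1157 and 1031 copies, a log2 ratio of -0.13 (-0.25 to -0.01).

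Of the AP-1 members, Ap1m1 was called up as described and Ap1s2 down. Ap1s2, a small subunit of AP-1 found in brain, had 33 and 13 copies, a log2 ratio of -1.31 (-2.36 to -0.34, FDR 0.0332). Only 1 of its 7 tags reached 20 copies, with 15 and 8, and ended in TG. The correction ended the call (-0.88, FDR 0.337). Ap1s3, a further small subunit, was listed only in the control with 5 copies (FDR 0.217). The 5 AP-1 members that were not called summed to 268 and 239 copies, a log2 ratio of -0.13 (-0.39 to 0.13).

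AP-2, AP-3 and AP-4 gave no call. Ap2m1, the AP-2 subunit that binds endocytic signals, had 1365 and 1443 copies, a log2 ratio of 0.12 (0.01 to 0.22, FDR 0.0536). Ap2s1, the small subunit of AP-2, had 533 and 422 copies, a log2 ratio of -0.30 (-0.49 to -0.11, FDR 0.0253), under the threshold of size, and its correction gave -0.01. The whole AP-2 complex summed to 2482 and 2433 copies, a log2 ratio of 0.01 (-0.07 to 0.09).

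In AP-3, which sorts cargo to lysosomes and synaptic vesicles, Ap3d1, the large delta subunit, had 1431 and 1455 copies, a log2 ratio of 0.06 (-0.05 to 0.17). Ap3s2, a small AP-3 subunit, had 109 and 132 copies, a log2 ratio of 0.31 (-0.06 to 0.69). In AP-4, the small subunit Ap4s1 had 55 and 56 copies, a log2 ratio of 0.06 (-0.50 to 0.63). The large subunit Ap4b1 had 39 and 29 copies, a log2 ratio of -0.39 (-1.14 to 0.34), and both intervals reached past the threshold of size.

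Retromer and its relatives had 6 members and no call. Vps29, a scaffold of the cargo-selective core, had 479 and 502 copies, a log2 ratio of 0.10 (-0.08 to 0.29). The correction raised it to 0.55, close to the threshold, and its most copied tag ended in GG. Vps35, the backbone of that core, had 363 and 428 copies, a log2 ratio of 0.27 (0.07 to 0.48, FDR 0.0276), under the threshold of size. Vps26c, from the related retriever complex, had 38 and 30 copies, a log2 ratio of -0.31 (-1.05 to 0.42).

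Among 9 ESCRT-I, ESCRT-II and Vps4 genes, Vps36 was called down. Vps36, the ESCRT-II subunit that binds ubiquitin, had 81 and 40 copies, a log2 ratio of -0.98 (-1.57 to -0.42, FDR 0.00514), and its correction left -0.75 with an FDR of 0.0705. Vps28, a core subunit of ESCRT-I and the best counted of the 9, had 687 and 543 copies, a log2 ratio of -0.30 (-0.47 to -0.14, FDR 0.00792). Its most copied tag ended in CA, and the correction gave -0.57, just under the threshold of size. Vps37c, an ESCRT-I subunit, had 57 and 85 copies, a log2 ratio of 0.61 (0.11 to 1.12) with an FDR of 0.0541. It counted as called up only when A-run tags were left out and totals recomputed (0.63, FDR 0.0467), although it has no such tag itself.

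The other Vps genes included Vps13a and Vps13d, bridge-like proteins that carry lipids between membranes. Vps13a was listed at 0 in the control and had 8 copies in the RNAi library (FDR 0.0238). Against 3 copies Vps13a was 2.73-fold higher, which is not a lower bound. The counting interval of its log2 ratio began at 0.81. Vps13d, by contrast, had 59 and 30 copies, a log2 ratio of -0.94 (-1.62 to -0.28, FDR 0.0284), and its correction left -0.74 (FDR 0.189). Vps45, a partner of syntaxins at the trans-Golgi network and endosomes, had 107 and 153 copies, a log2 ratio of 0.55 (0.19 to 0.92, FDR 0.0128), just below the threshold of size. Vps72 had 799 and 863 copies, a log2 ratio of 0.15 (0.01 to 0.29).

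The ER channel and related Sec genes gave 2 calls, both down. Sec61g, the small gamma subunit of the channel, had 300 and 166 copies, a log2 ratio of -0.82 (-1.10 to -0.54, FDR 2.03e-07). All of its copies were on 1 tag, which ends in GG, and the correction gave -0.42. The alpha and beta subunits of Sec61 were not called. Sec61a1, the pore itself, had 1215 and 1212 copies, a log2 ratio of 0.03 (-0.08 to 0.15), and Sec61b, the beta subunit, had 894 and 1094, a log2 ratio of 0.33 (0.20 to 0.46, FDR 1.28e-06), under the threshold of size. Sec62, which serves the import of small proteins and ER turnover, had 38 and 16 copies, a log2 ratio of -1.21 (-2.15 to -0.33, FDR 0.0387). Its correction left -1.16 with an FDR of 0.0643. Sec22a, an ER relative of a vesicle fusion protein, had 47 and 69 copies, a log2 ratio of 0.59 (0.03 to 1.16, FDR 0.117). A site 1 tag ending in 7 A held 70.7% of them, and the correction gave 0.06.

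**Figure D4:**
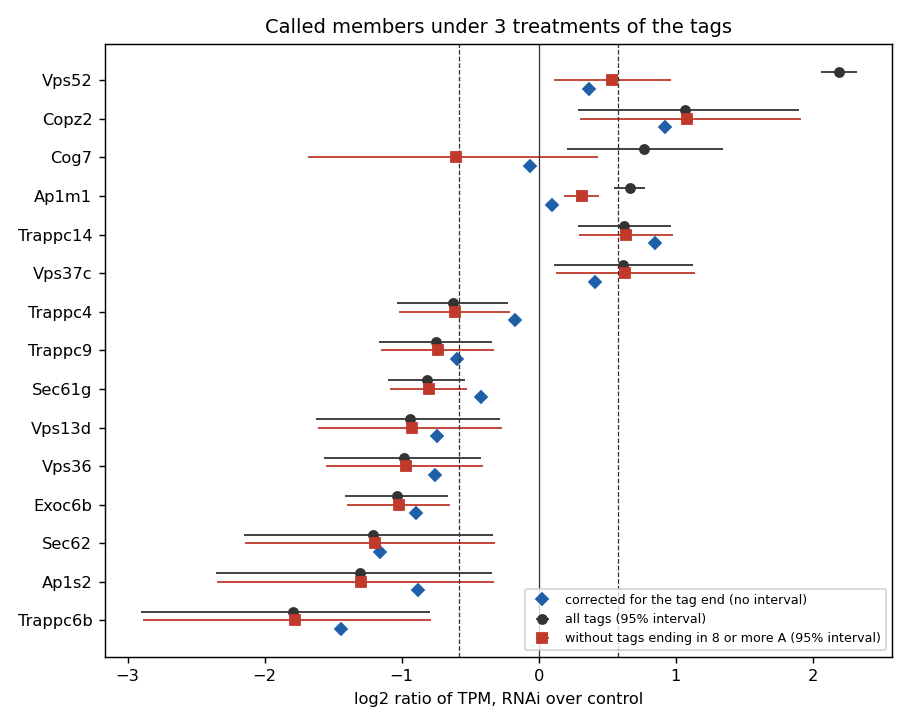
Log2 ratio (RNAi over control) of the 15 members called with all tags or without A-run tags and listed in both libraries. Circles use all tags, squares leave out tags ending in 8 or more A (both with 95% counting intervals), diamonds are corrected for the tag end, and dashed lines are at 0.58 on either side of 0. Vps52, Ap1m1 and Cog7 move toward or past 0 when the A-run tags go, while Exoc6b, Trappc6b, Trappc9 and Trappc14 were called in each version shown here.

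The bases at the end of a tag moved with the ratio in the members as in all genes. Of the members' 213 tags with 20 or more copies and no long run of A, 96 were higher and 117 lower, with a median log2 ratio of -0.08, where that of all genes was -0.09. The 10 member tags ending in TG had a median of -0.68 (-0.67 over all genes) and the 9 ending in GT a median of -0.78 (-0.67). The 17 ending in CA had a median of 0.12 (0.16 over all genes) and the 13 ending in AA a median of 0.32 (0.16). For 18 members (16.2%) the most copied tag had an end whose median over all genes was below -0.5, and 6 of the 9 members called down were among them: Trappc6b, Trappc9, Trappc4, Ap1s2, Vps13d and Sec61g. Over all genes such ends made up 13.4% of most copied tags, and 39.3% of those of genes called down. The part of the tag end in these calls was not tested beyond the correction.

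**Figure D5:**
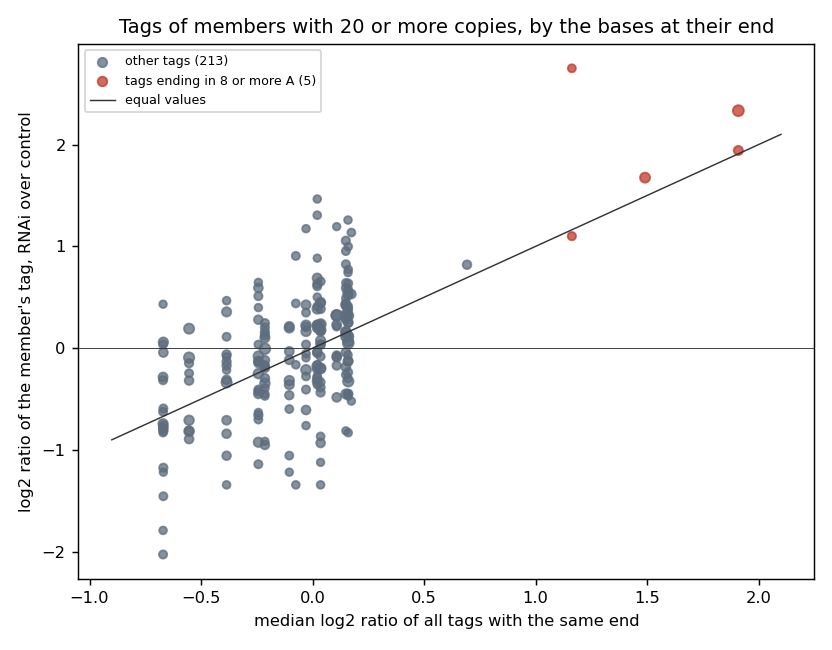
Log2 ratio (RNAi over control) of each member tag with 20 or more copies (y, with 0.5 copies added) against the median log2 ratio of all tags in the tables with the same end (x). Grey points are 213 tags without a long run of A, red points are 5 tags ending in 8 or more A, point size grows with copies, and the line marks equal values. The red tags lie farthest to the right and all above 0, and tags whose end has a low median lie mostly below 0.

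Tags of 1 gene often pointed both ways. Of 59 members with at least 2 tags of 20 or more copies, 11 had all of these tags higher, 13 had all of them lower, and 35 had both. The share over all genes is not given here, so these counts do not set the members apart. Such differences within a gene were tested only for the A-run tags above.

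Several members come as paralogues that can take each other's place in a complex. The share of copies taken by one of them does not depend on the library total, and 15 such pairs were compared with Fisher's exact test (two-sided, adjusted over the 15), a comparison chosen after the members' values had been seen. Trappc6b made up 34.8% of the Trappc6a and Trappc6b copies in the control (39 of 112, exact Clopper-Pearson 95% interval 26.1 to 44.4%) and 13.6% in the RNAi library (11 of 81, 6.98 to 23.0%), with an adjusted p of 0.0128. It was the only pair of the 15 to pass. The shares were not corrected for tag ends. The most copied tag of Trappc6b ends in TG and that of Trappc6a in TT, with medians over all genes of -0.67 and -0.21. The part of these ends in the shift was not tested. Copz2 made up 6.33% and 12.1% of the zeta subunit copies (adjusted p 0.0906). Ap1s2 took 39.3% and 21.7% of the copies of Ap1s1 and Ap1s2 (adjusted p 0.0950). The same adjusted p of 0.0950 belonged to Ap3s2, with 30.6% and 38.5% of the Ap3s1 and Ap3s2 copies. It also belonged to Sec22b, with 66.2% and 52.1% of the Sec22a and Sec22b copies. Exoc6b took 88.7% and 90.9% of the copies of Exoc6 and Exoc6b (adjusted p 0.908).

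The proteins that work with these coats and tethers were taken as a further list of 93 genes, of which 77 were listed, with a median log2 ratio of -0.05. In this list 2 (2.60%) were called up and 3 (3.90%) down, beside 2.96% and 5.97% of all genes. The tag-end correction ended the calls of Tmed10 (0.42) and Golga4 (-1.47) and added Arf6 (249 and 283 copies, 0.22 before and 0.61 after). Sar1b, a GTPase that starts the COPII coat, had 257 and 386 copies, a log2 ratio of 0.62 (0.39 to 0.86, FDR 4.65e-07). Its better counted paralogue Sar1a went the other way, with 630 and 482 copies. The log2 ratio of Sar1a was -0.35 (-0.52 to -0.18, FDR 0.00226), under the threshold of size. None of the COPII coat genes was called. Tmed10, a cargo receptor of the early secretory route, had 197 and 297 copies, a log2 ratio of 0.63 (0.36 to 0.90, FDR 1.34e-05). Cltc, the clathrin heavy chain that AP-1 and AP-2 recruit, had 1079 and 698 copies, a log2 ratio of -0.59 (-0.73 to -0.45, FDR 1.77e-14). Leaving out the A-run tags put Cltc at -0.58, just under the threshold, through the library total alone, since it has no such tag. Arf2, a GTPase of the COPI and AP-1 coats, had 164 and 105 copies, a log2 ratio of -0.61 (-0.97 to -0.25, FDR 0.0106), and Golga4, a trans-Golgi tether, had 24 and 7 copies, a log2 ratio of -1.74 (-3.20 to -0.48, FDR 0.0252). Cltc was the 1 call among 10 clathrin genes and adaptors, Sar1b and Arf2 the calls among 14 Arf and Sar GTPases and their regulators, Tmed10 that among 15 cargo receptors and Golga4 that among 11 Golgi tethers. Arcn1, the delta subunit of COPI, had 240 and 188 copies and was not called, and neither the 9 sorting nexins and retromer partners nor the 17 other ESCRT genes gave a call.

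All 111 members together summed to 21249 copies in the control and 23290 in the RNAi library, a log2 ratio of 0.17 (0.14 to 0.20). Without Vps52 the sums were 20667 and 20706, a log2 ratio of 0.04 (0.01 to 0.07). The difference in the sum thus rested mainly on Vps52 and its A-run tags.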

How the data were processed

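Digital gene expression tags from 1 control and 1 RNAi culture were analysed. The deposited tables gave each gene the count of its 21-base tags, each tag's site number and copies, and TPM that the authors computed as copies scaled to 1000000 clean tags, without gene length. The labels name the genome build rn4, and the tag-to-gene program is not given in the sources used here. Clean-tag totals were worked out from counts and TPM.

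Symbols came from RefSeq accessions or descriptions. Fisher's exact test, two-sided, set each gene's copies against the remaining copies on genes (SciPy 1.17.1, Python 3.11.15) with Benjamini-Hochberg adjustment over 9894 genes and genes were called at an FDR of 0.05 and a log2 ratio of 0.58, tested on simulated data. Alternatives used edgeR 4.0.16 and DESeq2 1.42.0 (R 4.3.3). The tag-end correction took the median log2 ratio of tags (20 or more copies) with the same last 2 bases, or A run of 3 to 13, from genes other than the one corrected, with the table split into 2 sets of genes. Named were all called members, those with over 50% of copies on A-run tags, and in each complex the best counted and the most changed with at least 50 copies. Vps53, Vps54, Vps50, Vps35, Vps45, Exoc6, Trappc10, Sec22a, Sec61b, Sec16b and Ap1s3 were added after their values were seen. Members and lists were chosen with earlier results of these data known.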

Additional observations from a re-analysis of the deposited data

How the results depend on the processing

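Of the 374 alternative values computed for the 34 named members with a ratio, 334 kept their direction and side of the threshold, 22 lost a call, 2 gained one and 16 changed direction. Cog7 alone of these was a call with all tags: -0.60 without A-run tags, -0.068 corrected for the tag end, and -0.60 without A-run tags and their 1-base neighbours (chosen after seeing the data). The correction also turned Cog4 to -0.13, Ap3d1 to -0.13, Ap4s1 to -0.15, Trappc2l to 0.37, Copa to 0.27 and Vps26c to 0.012. TMM factors gave Trappc2l 0.079 and Copa 0.041, DESeq2 size factors 0.069 and 0.032. The most copied tag only gave Trappc2l 0.059 and Sec61a1 -0.0057, and copies on genes as totals (chosen after seeing the data) gave Trappc2l 0.010. Of the settings behind the 374 values, copies summed per symbol and a minimum of 10 copies left every ratio unchanged. Members without a call could not lose one. The edgeR settings and the stricter thresholds below are not among the 374. The most copied tag of each gene only called 2 up, of which Vps52 was among the 7 called with all tags and Vps45 was not. It called 10 down, having lost Ap1s2 and Sec62 and gained Sec63, Trappc10 and Vps37b. Of the 7 called up, 3 were called with the tag-end correction, 4 at a log2 threshold of 1, and 2 at an FDR of 0.001. Of 9 called down, 3 were called with the correction, 4 at a log2 threshold of 1, and 2 at an FDR of 0.001. No spread between cultures is known, so edgeR's exact test was run with an assumed coefficient of variation: 0.1 called 2 up (Vps52 and Ap1m1) and 2 down (Exoc6b and Trappc6b), 0.2 called 1 up and 0 down, and 0.4 called 0 up and 0 down, beside 32 members at an unadjusted p under 0.05 in Fisher's test. Without A-run tags, 0.1 called 0 up and 2 down. The median log2 ratio of -0.03 became 0.066 with TMM factors and 0.06 with DESeq2 size factors, and both lost Trappc4 and gained Vps45. One copy put back for tags listed in 1 library lost Cog3, Vps13a and Ap1s2, and a minimum of 10 copies lost Cog3 and Vps13a and gained Trappc10. No paired analysis was possible because each condition has 1 library, and no library could be left out. Members under 172 copies (higher) or 210 (lower) could be relied on to pass only with larger ratios than the threshold of size.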
